A study of Mus musculus with 20 samples.

Results

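The malate-aspartate and glycerol phosphate shuttles were read in mouse islet RNA as 10 genes of 28632 in the count table. The 10 genes were listed by name: the glycerol phosphate dehydrogenases Gpd1 and Gpd2, the malate dehydrogenases Mdh1 and Mdh2, the aspartate aminotransferases Got1 and Got2, and the mitochondrial carriers Slc25a11, Slc25a12, Slc25a13 and Slc25a22. The rule sets no threshold on a measured value, all 10 genes were matched by Ensembl identifier, and all were detected in each of 20 libraries.

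Glycolysis makes NADH in the cytosol, and the inner mitochondrial membrane does not let NADH through. Both shuttles carry its electrons across. In the glycerol phosphate shuttle, cytosolic GPD1 makes glycerol 3-phosphate from NADH and GPD2, on the outer face of the inner membrane, passes the electrons on to ubiquinone. In the malate-aspartate shuttle, cytosolic MDH1 makes malate, the oxoglutarate carrier SLC25A11 brings it into the matrix, MDH2 recovers NADH there, and GOT2, GOT1 and an aspartate-glutamate carrier (SLC25A12, also called aralar, or SLC25A13, citrin) return the carbon and nitrogen as aspartate. SLC25A22 takes glutamate into the matrix with a proton. β-cells are known for high activity of these shuttles and low lactate dehydrogenase, and the shuttles take part in the coupling of glucose breakdown to insulin release.

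RNA sequencing compared islets of 12-week-old mice that had lost the outer mitochondrial membrane fusion proteins Mitofusin 1 (Mfn1), Mitofusin 2 (Mfn2) or both in β-cells, and asked which transcripts change with each loss. The groups were 6 Ctrl libraries (genotype in the labels wild type, 3 female and 3 male mice), 4 β-Mfn1KO (Mfn1-/-, 3 female and 1 male), 5 β-Mfn2KO (Mfn2-/-, 2 female and 3 male) and 5 β-Mfn1/2DKO (Mfn1-/-;Mfn2-/-, 2 female and 3 male). By the study's methods the knockouts carried loxP-flanked alleles cut by Ins1-Cre, which acts in β-cells, so the other cells of the islet kept both genes, while Ctrl mice carried either Ins1-Cre or the floxed alleles, but not both together. All mice were on the C57BL/6N background, and islets were hand-picked and cultured.

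The libraries did not have like depth. Totals, in M (mega) counts, ran from 12.4 to 20.3 in Ctrl, from 15.7 to 16.7 in β-Mfn1KO and from 65.5 to 122.9 in β-Mfn1/2DKO, while β-Mfn2KO had 3 libraries of 15.1 to 18.9 M and 2 (replicates 4 and 5, both male) of 56.0 and 59.5 M. All β-Mfn1/2DKO libraries were thus deeper than any Ctrl library. Of the targeted genes, Mfn1 had a log2 fold change of −1.07 and Mfn2 of −0.75 in β-Mfn1/2DKO. The log2 fold change was −1.31 for Mfn1 in β-Mfn1KO and −1.15 for Mfn2 in β-Mfn2KO. The remaining Mfn2 RNA was higher in β-Mfn1/2DKO than in β-Mfn2KO, by 0.40 (adjusted p = 0.00106 in edgeR's quasi-likelihood test), without overlap. For Mfn1, β-Mfn1/2DKO differed from β-Mfn1KO by 0.24 (adjusted p = 0.138 in the same test). The part of these differences in the comparisons below was not tested. Of the β-cell markers, 8 of 8 were lower in β-Mfn1/2DKO (summed level 2453794 to 3343429, against 4929583 to 7665615 in Ctrl). Of the acinar markers 10 of 11 were higher in β-Mfn1/2DKO, with its replicates 4 and 5 the highest libraries (mean log2 level of the acinar markers 8.74 and 10.19). The other 3 β-Mfn1/2DKO libraries (3.42 to 4.37) lay within the Ctrl range (2.82 to 5.60). β-Mfn2KO replicate 4, 1 of the 2 deep β-Mfn2KO libraries, was at 7.62. Endothelial markers were higher in 5 of 5 cases (6645 to 10838 in β-Mfn1/2DKO against 4508 to 6887 in Ctrl). Each of 2 markers, acinar Amy2b and ductal Cftr, was at 0 in at least 1 library. Of the α-cell markers 1 of 5 passed the test. The δ-cell and γ-cell lists had 0 of 3 and 0 of 1, and ductal, stromal and immune markers 2 of 5, 1 of 5 and 0 of 5. In whole islets fewer cells of a type and less RNA per cell cannot be told apart, and the part of these shifts in the values below was not tested.

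The promoters of Gpd2, Mdh1 and Got1 are shown because these 3 genes carry the changes described below. Each sequence is RefSeq's on GRCm38.p6, 300 bases from 250 before the transcription start to 50 after it, 5′ to 3′ along the gene, with capitals where a motif was found. Gpd2 lies on chromosome 2 (ENSMUSG00000026827, 57237635 to 57370719, plus strand in GRCm38), and its first promoter is chr2:57237428-57237727 on the plus strand. Mdh1 lies on chromosome 11 (ENSMUSG00000020321, 21556787 to 21572367, minus strand) with its promoter at chr11:21571885-21572184, and Got1 on chromosome 19 (ENSMUSG00000025190, 43499752 to 43524605, minus strand) with its promoter at chr19:43524556-43524855.
Gpd2: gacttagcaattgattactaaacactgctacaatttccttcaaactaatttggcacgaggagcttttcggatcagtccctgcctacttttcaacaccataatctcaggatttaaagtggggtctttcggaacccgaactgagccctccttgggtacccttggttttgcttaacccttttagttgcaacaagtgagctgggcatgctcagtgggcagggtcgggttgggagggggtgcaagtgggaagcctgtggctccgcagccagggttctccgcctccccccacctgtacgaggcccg
Mdh1: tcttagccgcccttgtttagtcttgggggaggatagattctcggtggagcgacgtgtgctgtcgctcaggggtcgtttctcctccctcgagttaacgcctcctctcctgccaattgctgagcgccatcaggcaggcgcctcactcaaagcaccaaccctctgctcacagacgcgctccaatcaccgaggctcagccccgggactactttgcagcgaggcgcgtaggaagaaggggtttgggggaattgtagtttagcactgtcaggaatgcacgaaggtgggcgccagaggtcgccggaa
Got1: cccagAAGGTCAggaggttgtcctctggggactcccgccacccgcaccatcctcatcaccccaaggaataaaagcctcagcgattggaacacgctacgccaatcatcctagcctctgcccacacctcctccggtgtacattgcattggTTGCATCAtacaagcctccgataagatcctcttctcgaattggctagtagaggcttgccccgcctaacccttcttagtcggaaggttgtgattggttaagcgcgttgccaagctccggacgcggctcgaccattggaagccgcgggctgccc
The windows were searched on both strands for 5 motifs: the C/EBP-ATF response element TGATGNAA, the cAMP response element TGACGTCA, the E-box CACGTG, the NRF1 site and the ERR element AAGGTCA. Got1 held a C/EBP-ATF response element (TTGCATCA, the reverse complement, 102 bases before the start) and an ERR element (245 bases before it). These motifs occur in 3.97% and 4.72% of all 32851 RefSeq windows of this length. The windows printed for Gpd2 and Mdh1, and a second Gpd2 window, held none of the 5. Of the other members with a window, Mdh2 held a cAMP response element (in 1.79% of windows) and Slc25a13 an E-box (in 7.15%). NRF1 sites (in 4.6%) were found in none of the members' 12 windows, which cover 9 of the 10 genes. A match gives letters in a window and no more.

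The other members, in GRCm38, were Gpd1 on chromosome 15 (99717515 to 99725005, plus strand), Mdh2 on chromosome 5 (135778480 to 135790398, plus), Got2 on chromosome 8 (95864134 to 95888547, minus) and Slc25a11 on chromosome 11 (70644196 to 70647479, minus). The remaining carriers were Slc25a12 on chromosome 2 (71271063 to 71367749, minus), Slc25a13 on chromosome 6 (6041218 to 6217173, minus) and Slc25a22 on chromosome 7 (141429744 to 141437892, minus). Counts cover all exons of each gene.

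Normalised read counts are counts scaled by TMM, the library scaling of edgeR, to the mean library size. Levels of different genes can be compared only per length, so counts were also divided by the length of each gene's exons. That length joins all annotated exons of a gene, which can be longer than the transcripts present in islets. The order below holds for this length, and no other length was tried. In Ctrl islets the cytosolic malate dehydrogenase Mdh1 stood highest, at 4080.0 ± 305.5 normalised counts per kb (SD, n = 6), ahead of Mdh2 at 1761 ± 24.2 and the oxoglutarate carrier Slc25a11 at 1197 ± 58.1. Gpd2 followed at 999.7 ± 65.2 and Got2 at 865 ± 39. These 5 levels did not overlap between neighbours in any Ctrl library. Got1 (661.8 ± 124.7) overlapped both Got2 and the next gene, Gpd1 (599.5 ± 56.8), and was above Gpd1 in 3 of 6 libraries. The glutamate carrier Slc25a22 (402.5 ± 31.9) and the aspartate-glutamate carrier Slc25a12 (389.8 ± 13.7) overlapped as well. Slc25a13, the form of that carrier known from liver, was lowest at 56.8 ± 5.95 per kb, and counts of Slc25a12 were 11.5 to 16.9 times those of Slc25a13 within each Ctrl library. In β-Mfn1/2DKO the order of the top 3 was as in Ctrl, while Got1 took rank 4 (1003.9 ± 139.3, n = 5), overlapping Got2, and Gpd2 rank 7 (616.4 ± 46).

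**Figure D1:**
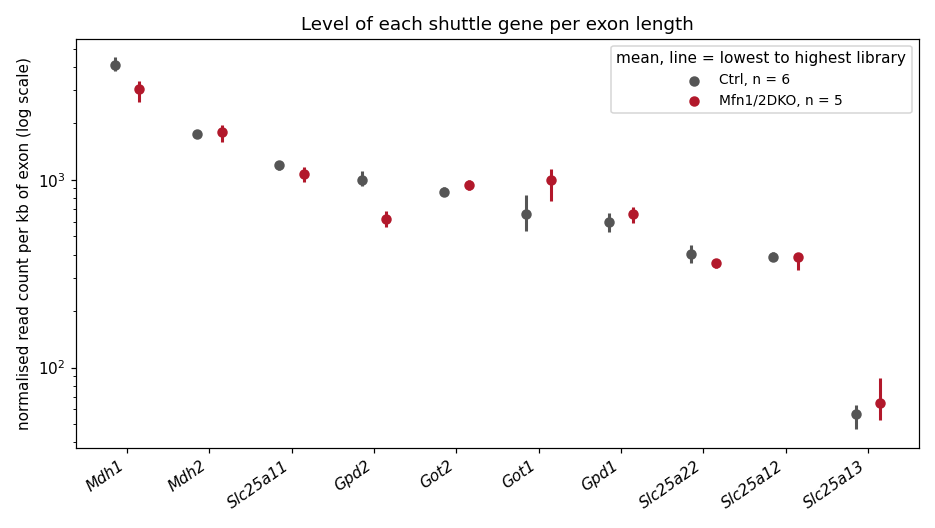
Level of each of the 10 shuttle genes as normalised read counts per kb of exon, on a log scale, in Ctrl (n = 6) and β-Mfn1/2DKO (n = 5); points are group means and lines run from the lowest to the highest library. From left to right the genes fall from Mdh1 at 4080.0 to Slc25a13 at 56.8 per kb in Ctrl, and the lines of Gpd2 and of Mdh1 do not overlap between the groups.

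The comparison of β-Mfn1/2DKO with Ctrl asked what loss of both mitofusins does to the shuttles. Gpd2 and Mdh1 fell, Got1 rose and the glutamate carrier Slc25a22 fell by a smaller amount, while the other 6 genes did not pass. A gene passed where its p, adjusted by Benjamini-Hochberg over all 28632 genes, fell below 0.05 in the quasi-likelihood test of edgeR. By this rule 4 of 10 passed, 1 higher and 3 lower. Over all genes 16.5% passed (9.59% higher, 6.86% lower), and among the 12274 genes with a mean of at least 100 normalised counts, as all 10 members have, 33.6% did (19.5% higher and 14.0% lower). The share of members was therefore close to that of genes with a mean of at least 100. Most members lie well above that mean, and no closer match of level was made. With a fold change over 1.5 as well, which 5.21% of all genes and 7.44% at that level met, 2 of 10 passed (Gpd2 and Got1). Counts of 2 members, Gpd2 and Mdh1, did not overlap between the groups, as in 20.6% of genes with a mean of at least 100. The median log2 fold change was 0.01 over the members and 0.03 over the genes with that mean. TMM put β-Mfn1/2DKO libraries 0.14 lower on the log2 scale, relative to Ctrl, than total counts did. With total counts as the scaling 5 of 10 passed, 3 higher (Got1, Gpd1 at 0.27 and Got2 at 0.25) and 2 lower (Gpd2 at −0.56 and Mdh1 at −0.28), and Slc25a22 was at −0.02.

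Gpd2, the mitochondrial step of the glycerol phosphate shuttle, had normalised counts of 6094 (lowest), 6494 (median) and 7312 (highest) in Ctrl and of 3676.5, 4102, 4055, 3867 and 4484 in β-Mfn1/2DKO replicates 1 to 5. Every β-Mfn1/2DKO library was below every Ctrl library. The mean fell by 38.3%, a log2 fold change of −0.70 (95% interval −0.99 to −0.40, SE 0.14, adjusted p = 0.0012 in edgeR's quasi-likelihood test). In β-Mfn2KO the counts were 6525, 7793 and 7462 in replicates 1 to 3 and 4692 and 4204 in replicates 4 and 5. The last 2 are the deep β-Mfn2KO libraries, and they lay below all Ctrl libraries, next to β-Mfn1/2DKO. β-Mfn1KO libraries held 5572, 5697, 7319 and 3903, the last of these a male with 15.8 M counts, so a low Gpd2 count also occurred in 1 library that was not deep. With a term for depth class (above or below 40 M counts) the log2 fold change of Gpd2 was 0.0093 (adjusted p = 1), and between β-Mfn1/2DKO and the 2 deep β-Mfn2KO libraries it was −0.09 (adjusted p = 0.567). With all libraries drawn down to the smallest total it was −0.74 (adjusted p = 0.00046). For Gpd2 the double knockout and the depth class cannot be told apart in these libraries. The antisense RNA A930012O16Rik overlaps 487 exon bases of Gpd2 and had 2.01% as many counts.

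Gpd1, the cytosolic partner of Gpd2, had counts of 1566, 1787 and 1971 (lowest, median and highest) in Ctrl and of 2122, 2039, 1869, 1755 and 1948 in β-Mfn1/2DKO. The groups overlapped, and the log2 fold change was 0.13 (interval −0.05 to 0.32, SE 0.09, adjusted p = 0.381 by edgeR). With the depth term it was 0.52 (adjusted p = 0.0379), and the deep β-Mfn2KO libraries held 1753 and 1453 and the other 3 held 2068, 1928 and 2294. Against Ctrl, Gpd1 was the only member that passed in the fit with that term.

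Mdh1, the cytosolic malate dehydrogenase, had counts of 9738, 10397 and 11518 (lowest, median and highest) in Ctrl and of 7919, 8621, 7850.4, 7988 and 6646.5 in β-Mfn1/2DKO. No libraries overlapped between these groups. The mean fell by 25.5%, with a log2 fold change of −0.42 (adjusted p = 5.9e-05 by edgeR, SE 0.06). β-Mfn2KO (9713, 10373, 9995, 9927 and 9248) and β-Mfn1KO (11757.5, 10561, 11161 and 11737) lay above every β-Mfn1/2DKO library, and of the 2 deep β-Mfn2KO libraries (9927 and 9248) the last lay below the Ctrl range. The log2 fold change was −0.36 with the depth term (adjusted p = 0.108) and −0.34 without replicates 4 and 5 of β-Mfn1/2DKO (adjusted p = 0.00098). Mdh1 shares 52 exon bases with Wdpcp on the opposite strand, which had 7.1% as many counts. Mdh2, the matrix enzyme, had counts of 6120.2 to 6369 in Ctrl and of 6405, 7001.5, 6347.5, 6418 and 5683 in β-Mfn1/2DKO, and its log2 fold change was 0.02 (interval −0.08 to 0.13, SE 0.05, adjusted p = 0.808). Its groups overlapped, and Mdh2 had the tightest Ctrl counts of the 10 genes (SD 86.1 around a mean of 6273).

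Got1, the cytosolic aspartate aminotransferase, had counts of 1361.5, 1631 and 2119.5 (lowest, median and highest) in Ctrl and of 2509, 2907, 2648, 2710.5 and 1971 in β-Mfn1/2DKO. Replicates 1 to 4 of β-Mfn1/2DKO were above all Ctrl libraries, and replicate 5 lay within their range. The mean was 51.5% higher, with a log2 fold change of 0.60 (interval 0.36 to 0.84, SE 0.12, adjusted p = 0.0009 by edgeR). Replicate 5 also had the highest acinar marker level, 10.19, and without replicates 4 and 5 the log2 fold change was 0.70 (adjusted p = 0.00047). In β-Mfn2KO the counts were 1535, 1508, 2099.8, 1624 and 1568.5, the last 2 in the deep libraries, and in β-Mfn1KO 2057, 1900.0, 1584.5 and 1591. Against the deep β-Mfn2KO libraries alone Got1 was 0.72 higher on the log2 scale (adjusted p = 0.0186), and it was the only one of the 10 genes to pass there. In the fit of all groups with the depth term the value was 0.70 (adjusted p = 0.0946). Got2, the matrix enzyme, had counts of 3959.9, 4169.9 and 4440.0 in Ctrl and of 4412, 4800.0, 4428, 4631 and 4249.7 in β-Mfn1/2DKO, and its log2 fold change of 0.11 did not pass (adjusted p = 0.16, SE 0.05). Of the 75-base stretches of Got2, 19.3% also occur in another gene, of which Gm10874 and Got2-ps1 had mean counts of 6.2 and 17.0.

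**Figure D2:**
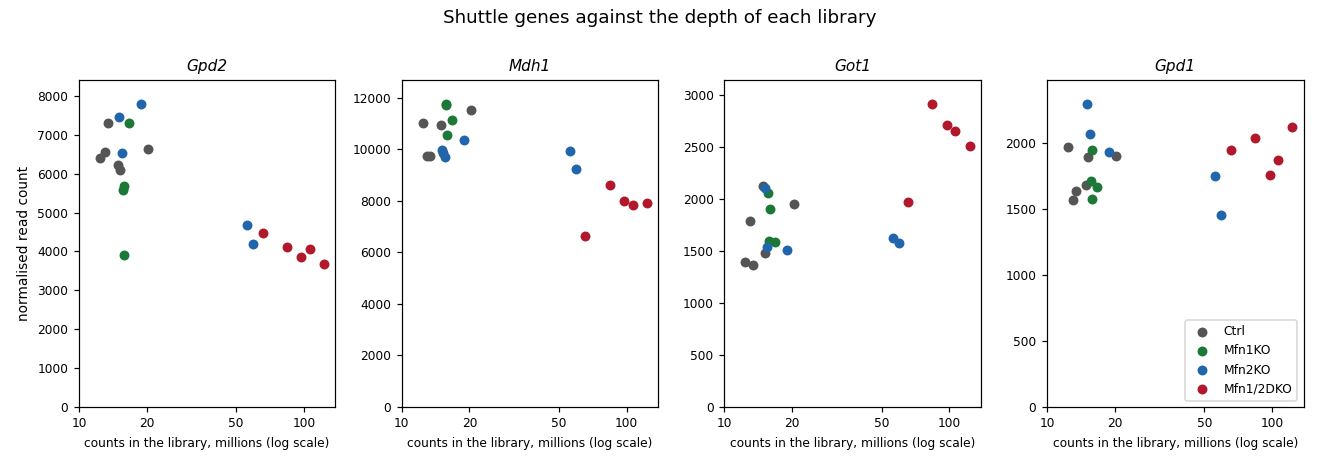
Normalised read counts of Gpd2, Mdh1, Got1 and Gpd1 against the total of each library in M counts (log scale), with y axes from 0 and 1 point per library coloured by group. Gpd2 is at 4692 or below in all libraries over 40 M counts, whereas the 2 deep β-Mfn2KO libraries have Mdh1 at 9927, within the Ctrl range, and 9248, below it but above all β-Mfn1/2DKO libraries, and Got1 within the Ctrl range (1624 and 1568.5).

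Of the carriers, Slc25a22 passed and the other 3 did not. Slc25a22, the proton-coupled glutamate carrier, had counts of 2157, 2387 and 2681 (lowest, median and highest) in Ctrl and of 2277.5, 2212, 2181, 2068 and 2022 in β-Mfn1/2DKO. The groups overlapped, and the log2 fold change was −0.16 (adjusted p = 0.0231 by edgeR, SE 0.05). This call was lost when any one of Ctrl replicates 1 and 2 or β-Mfn1/2DKO replicates 2, 3, 4 and 5 was left out (−0.13 to −0.15 in these fits), without both replicates 4 and 5 (−0.10, adjusted p = 0.335), with the acinar level as a term (−0.14, adjusted p = 0.0638) and with the depth term (−0.12, adjusted p = 0.6). Slc25a11, the oxoglutarate carrier, had counts of 2381.5, 2568 and 2669.5 in Ctrl and of 2357, 2482, 2242, 2255.5 and 2065 in β-Mfn1/2DKO, with a log2 fold change of −0.15 (adjusted p = 0.0587, SE 0.05). It is an uncertain gene, since 189 of its exon bases (8.9%) overlap Rnf167 on the opposite strand, which had 143.51% as many counts, and whether counting used the strand is not given in the sources used here. Slc25a11 lay near the threshold: it passed in 6 of 13 other settings, among them DESeq2 (−0.18, adjusted p = 0.00486), and without Ctrl replicate 6 (−0.17) or β-Mfn1/2DKO replicate 2 (−0.16). It did not pass without β-Mfn1/2DKO replicates 4 and 5 (−0.08, adjusted p = 0.463) or with the depth term (−0.08, adjusted p = 0.822).

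For the aspartate-glutamate carriers the values were near those of Ctrl. Slc25a12 had counts of 2773, 2825 and 3045 (lowest, median and highest) in Ctrl and of 3004, 3000.4, 2999, 2892 and 2425 in β-Mfn1/2DKO, with a log2 fold change of 0.00 (interval −0.11 to 0.11, SE 0.05, adjusted p = 1 by edgeR). Slc25a13 had 179, 219 and 241 in Ctrl and 199, 210.2, 226, 264 and 333 in β-Mfn1/2DKO, with a log2 fold change of 0.19 (adjusted p = 0.417, SE 0.13). The highest Slc25a13 counts and the lowest Slc25a12 count were in β-Mfn1/2DKO replicates 4 and 5, those with acinar levels of 8.74 and 10.19. Their part in these values was not tested, and without replicate 5 the log2 fold change of Slc25a13 was 0.06.

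**Figure D3:**
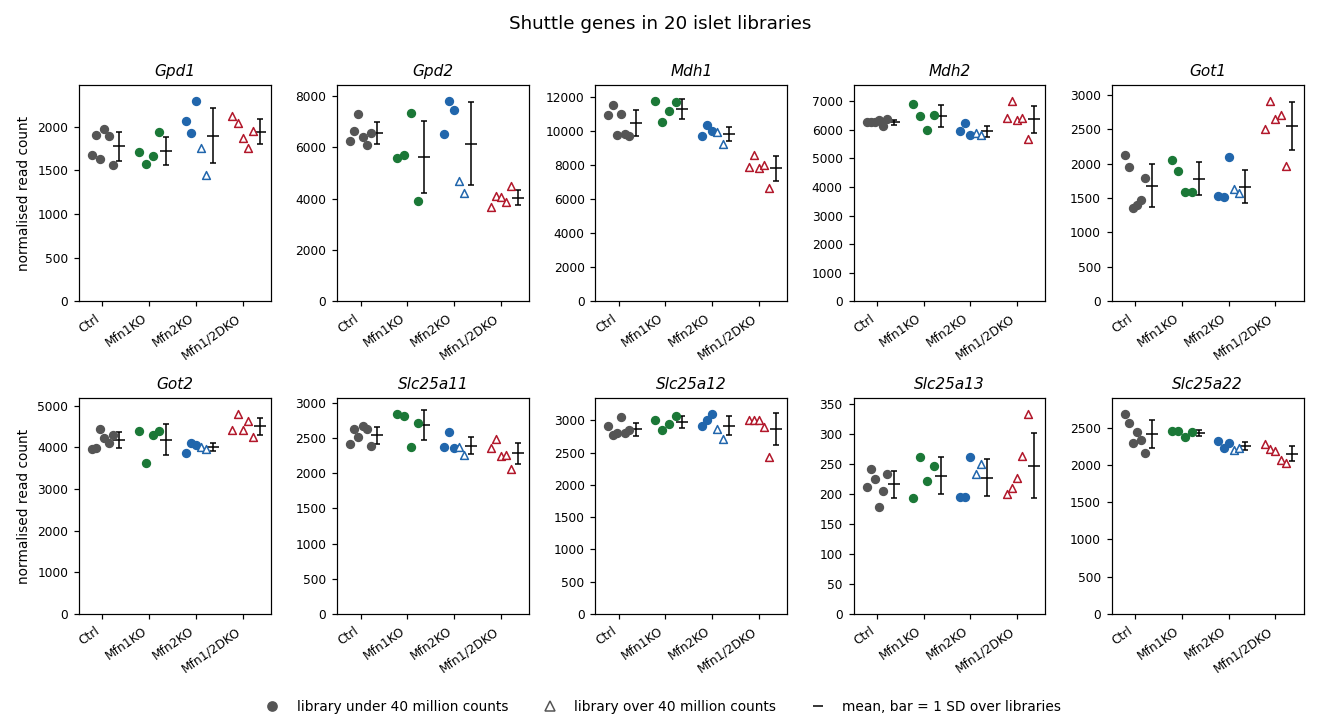
Normalised read counts of the 10 shuttle genes in each of the 20 libraries, 1 panel per gene, with y axes from 0; filled circles are libraries under 40 M counts, open triangles those over it, and black bars show the mean and 1 SD of each group. Gpd2 is low in the β-Mfn1/2DKO libraries (3676.5 to 4484) and in the 2 deep β-Mfn2KO libraries (4692 and 4204), whereas all β-Mfn1/2DKO libraries have less Mdh1 (at most 8621) and more Got1 (at least 1971) than the 2 deep β-Mfn2KO libraries (Mdh1 9927 and 9248, Got1 1624 and 1568.5).

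The single knockouts were compared with the same 6 Ctrl libraries. In β-Mfn2KO 0 of 10 genes passed (0.0559% of all genes and 0.122% of those with a mean of at least 100 did), and 0 had an unadjusted p under 0.05 (edgeR) or a separation from Ctrl without overlap (0.570% of genes at that level). The log2 fold changes lay between −0.10 and 0.09. In β-Mfn1KO 0 of 10 passed as well (0.0279% of all genes and 0.0570% at that level did). There, 0 had an unadjusted p under 0.05 or lay apart from Ctrl without overlap (1.47% of genes at that level). The log2 fold changes ran from −0.22 for Gpd2 to 0.11 for Mdh1. DESeq2 called 0 of 10 in both comparisons. Gpd2 was the most variable member in these groups, and a single β-Mfn1KO library and 2 β-Mfn2KO libraries had low counts of it. Its SD was 1395.5 around a mean of 5623 in β-Mfn1KO and 1618 around 6135 in β-Mfn2KO, against 427 around 6547 in Ctrl. In β-Mfn1KO the other 3 libraries also spread, from 5572 to 7319. The 95% intervals of Gpd2 were −0.53 to 0.09 in β-Mfn1KO and −0.39 to 0.19 in β-Mfn2KO. The β-Mfn2KO interval pools 3 libraries at a mean of 7260.2 with the 2 deep ones at 4448, and single libraries of both groups reached the β-Mfn1/2DKO range (4204 in β-Mfn2KO and 3903 in β-Mfn1KO).

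**Figure D4:**
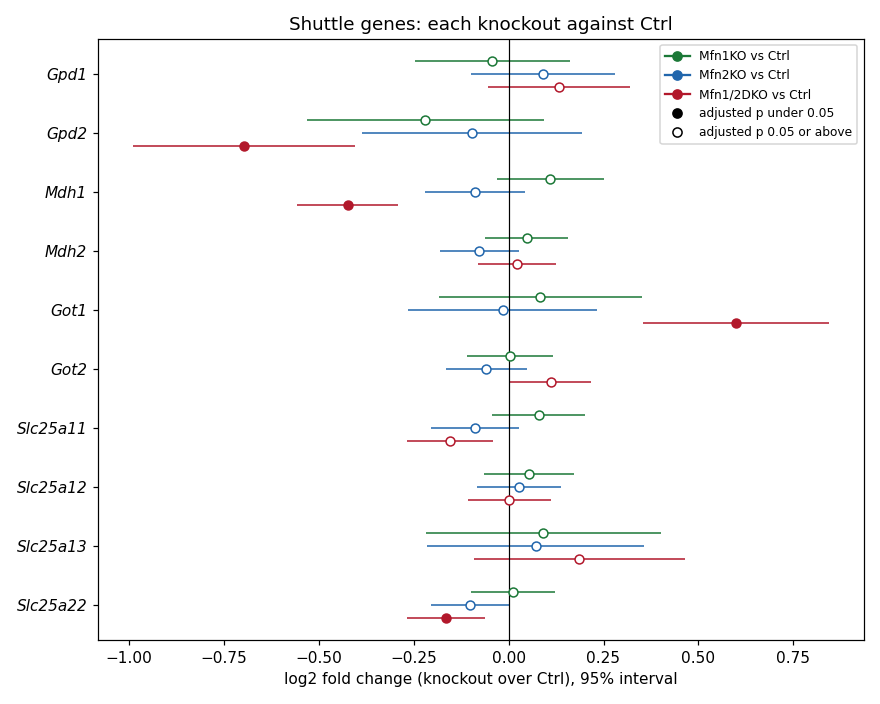
Log2 fold changes of the 10 shuttle genes against Ctrl in β-Mfn1KO (green), β-Mfn2KO (blue) and β-Mfn1/2DKO (red), with 95% intervals; filled points had an adjusted p under 0.05. Filled points appear in β-Mfn1/2DKO alone, for Gpd2 (−0.70), Mdh1 (−0.42), Got1 (0.60) and Slc25a22 (−0.16), and all 3 comparisons share the Ctrl libraries.

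Gpd2 and Mdh1 were lower and Got1 higher in the double knockout than in either single knockout. Compared with β-Mfn2KO, 4 of 10 passed in edgeR (13.0% of all genes and 26.6% of those with a mean of at least 100 did). Gpd2 differed by −0.60 on the log2 scale (adjusted p = 0.00714, SE 0.15), Mdh1 −0.34 (adjusted p = 0.00135, SE 0.07), Got1 0.62 (adjusted p = 0.00146, SE 0.12) and Got2 0.17 (adjusted p = 0.0365, SE 0.05). Got2 had not passed against Ctrl, and its counts in β-Mfn2KO (3870.5, 4105.5, 4065, 4015 and 3961) were all below those in β-Mfn1/2DKO. That call was lost when β-Mfn2KO replicate 1, 2 or 4 or β-Mfn1/2DKO replicate 2 or 4 was left out (0.16 to 0.18). With the depth term Mdh1 and Got1 passed (−0.30, adjusted p = 0.0448, and 0.68, adjusted p = 0.0175), while Gpd2 was at −0.14 (adjusted p = 0.646).

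Compared with β-Mfn1KO, 5 of 10 passed in edgeR (17.4% of all genes and 35.1% at that level). Gpd2 (−0.48, adjusted p = 0.0336), Mdh1 (−0.53, adjusted p = 1.1e-05), Slc25a11 (−0.23, adjusted p = 0.00848) and Slc25a22 (−0.18, adjusted p = 0.0277) were lower and Got1 was higher (0.52, adjusted p = 0.00766). The calls of Mdh1, Got1 and Slc25a11 were kept in all 9 fits that left out 1 library. Gpd2 passed in 2 of these, without β-Mfn1KO replicate 4 (−0.62) or β-Mfn1/2DKO replicate 5 (−0.52), and Slc25a22 in 2, without β-Mfn1KO replicate 3 or β-Mfn1/2DKO replicate 1. Leaving out any other library of these groups took the adjusted p of both above 0.05. Gpd2 was furthest from its value without β-Mfn1KO replicate 3 (−0.33, adjusted p = 0.184). With the depth term the direction of Gpd2 turned (0.23, adjusted p = 0.637), Got1 (0.62, adjusted p = 0.141), Slc25a11 (−0.16, adjusted p = 0.493) and Slc25a22 (−0.13, adjusted p = 0.541) did not pass, and Mdh1 did (−0.47, adjusted p = 0.0258). With the acinar level as a term, and without β-Mfn1/2DKO replicates 4 and 5, Mdh1 and Got1 passed and Gpd2, Slc25a11 and Slc25a22 did not.

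The interaction of both losses was tested as the effect of losing Mfn1 in the absence of Mfn2 minus that in its presence. It passed for 1 of 10 genes (5.92% of all genes and 12.8% at that level). For Mdh1 the interaction was −0.45 on the log2 scale (adjusted p = 0.00587 by edgeR, SE 0.09). Loss of Mfn1 came with a log2 change in Mdh1 of 0.11 where Mfn2 was present and of −0.34 where it was absent. The interaction of Mdh1 passed in all 20 fits without 1 library, and also with the depth term (−0.41, adjusted p = 0.0443). With total counts as the scaling it did not pass (−0.31, adjusted p = 0.0658). Got1 had an interaction of 0.53 (adjusted p = 0.0843, SE 0.18) and Gpd2 of −0.38 (adjusted p = 0.355, SE 0.21), neither of which passed.

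Ratios of partner genes within a library do not depend on how libraries are scaled, and they set the cytosolic against the mitochondrial enzyme of each step. The ratio of Mdh1 to Mdh2 counts was 1.53, 1.67 and 1.84 (lowest, median and highest) in Ctrl and 1.24, 1.23, 1.24, 1.24 and 1.17 in β-Mfn1/2DKO. The groups did not overlap, and the 5 β-Mfn1/2DKO values were closer together than those of any other group (SD 0.0307, against 0.123 in Ctrl). The mean log2 ratio differed by −0.44 from Ctrl (permutation p = 0.00433, adjusted p = 0.0317, two-sided exact permutation test over 462 splits, with Benjamini-Hochberg adjustment over 16 tests) and by −0.44 from β-Mfn2KO (permutation p = 0.00794, adjusted p = 0.0317, 252 splits), where the ratios were 1.63, 1.66, 1.72, 1.68 and 1.59. These are the smallest p-values that the splits can give. The 2 deep β-Mfn2KO libraries, at 1.68 and 1.59, lay with the shallow ones and not with β-Mfn1/2DKO.

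The ratio of Gpd1 to Gpd2 was 0.224, 0.278 and 0.311 in Ctrl and 0.577, 0.497, 0.461, 0.454 and 0.435 in β-Mfn1/2DKO, again without overlap. The mean log2 ratio was 0.83 above Ctrl (exact permutation p = 0.00433, adjusted p = 0.0317) and 0.61 above β-Mfn2KO (exact permutation p = 0.00794, adjusted p = 0.0317). The deep β-Mfn2KO libraries stood at 0.374 and 0.346, above the other 3 (0.317, 0.247 and 0.307) and below β-Mfn1/2DKO, and β-Mfn1KO replicate 4 reached 0.498. The ratio did not overlap between β-Mfn1/2DKO and the deep β-Mfn2KO libraries, while the Gpd2 counts did. Both genes enter this difference. Gpd1 averaged 1946.5 in β-Mfn1/2DKO and 1603.0 in the deep β-Mfn2KO libraries, and Gpd2 averaged 4036.9 and 4448.1. This comparison with the deep libraries was chosen after seeing the data. With 2 deep libraries the smallest possible p was 0.0952, which each of the first 3 ratios reached, with log2 differences of 0.42 for Gpd1/Gpd2, −0.42 for Mdh1/Mdh2 and 0.49 for Got1/Got2.

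For Got1 over Got2 the ratio was 0.307, 0.387 and 0.535 in Ctrl and 0.569, 0.606, 0.598, 0.585 and 0.464 in β-Mfn1/2DKO. Replicate 5 fell within the Ctrl range and the other 4 above it, with a log2 difference of 0.50 (exact permutation p = 0.013, adjusted p = 0.0416). Against β-Mfn2KO (0.397, 0.367, 0.517, 0.405 and 0.396) the difference was 0.44 (exact permutation p = 0.0159, adjusted p = 0.0423). The ratio of Slc25a12 to Slc25a13 averaged 13.3 in Ctrl and 12.2 in β-Mfn1/2DKO (log2 difference −0.17, exact permutation p = 0.485, adjusted p = 0.776), and its lowest value of all libraries, 7.28, was in β-Mfn1/2DKO replicate 5. None of the 4 ratios passed in β-Mfn1KO or β-Mfn2KO against Ctrl (exact permutation p of 0.108 to 0.874 unadjusted).

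**Figure D5:**
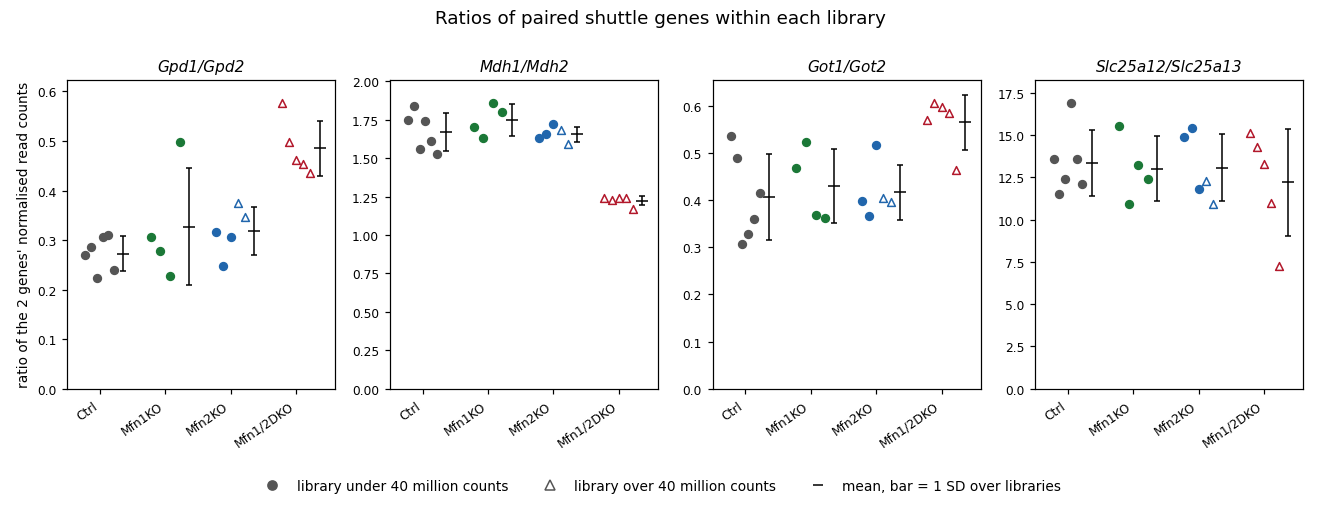
Ratio of the normalised read counts of 2 partner genes within each library, with y axes from 0, for Gpd1/Gpd2, Mdh1/Mdh2, Got1/Got2 and Slc25a12/Slc25a13; filled circles are libraries under 40 M counts, open triangles those over it, and black bars show the mean and 1 SD. The Mdh1/Mdh2 ratio sits at 1.17 to 1.24 in β-Mfn1/2DKO and at 1.53 or above in all other libraries.

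Genes next to the shuttles were read as 6 lists in β-Mfn1/2DKO against Ctrl. The counts of each list stand beside the share of all genes that passed, 16.5% (9.59% higher and 6.86% lower). Among genes with a mean of at least 100, which not all listed genes reach, it was 33.6% (19.5% higher and 14.0% lower). Other forms of the shuttle enzymes and carriers (Gpd1l, Mdh1b, Got1l1, Slc25a18) had 0 of 4 past the test, with 1 unadjusted p under 0.05 in edgeR, and of these only Gpd1l was well expressed (1231.1 to 1385 in Ctrl, 1315 to 1517 in β-Mfn1/2DKO, log2 fold change 0.14, adjusted p = 0.102). Lactate and pyruvate genes had 3 of 8 higher and 0 lower: the mitochondrial pyruvate carrier subunit Mpc2 (0.24, adjusted p = 0.0107), the D-lactate dehydrogenase Ldhd (0.33, adjusted p = 0.00961) and the monocarboxylate transporter Slc16a1 (1.05, adjusted p = 0.0315). Slc16a1 did not pass without β-Mfn1/2DKO replicates 4 and 5 (0.52, adjusted p = 0.385), and with the depth term its direction turned (−0.21, adjusted p = 1). Ldha, the lactate dehydrogenase that β-cells keep low, ranged from 332 to 1195 in Ctrl and from 503 to 1220.4 in β-Mfn1/2DKO and did not pass (0.35, adjusted p = 0.653).

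Pyruvate cycling and anaplerosis, the entry of carbon into the citric acid cycle, had 0 of 10 higher and 2 lower. Idh1, the cytosolic NADP-dependent isocitrate dehydrogenase, had normalised counts of 2538 to 3192 in Ctrl and 1846.5 to 2123 in β-Mfn1/2DKO without overlap (−0.50, SE 0.05, adjusted p = 9.2e-07 by edgeR). Pcx, pyruvate carboxylase, was at −0.29 (adjusted p = 0.0246) and did not pass without β-Mfn1/2DKO replicates 4 and 5 (−0.17, adjusted p = 0.259). Glutamate, aspartate and alanine metabolism had 4 of 11 higher and 1 lower. Gpt2, the mitochondrial alanine aminotransferase, showed the largest change of the 6 lists, from 1009 to 1506 in Ctrl up to 3648 to 5335 in β-Mfn1/2DKO (1.88, SE 0.10, adjusted p = 5.1e-11). Its cytosolic counterpart Gpt, named like Ldha after its values were seen, was at −0.03 (adjusted p = 0.872). Asl, argininosuccinate lyase, was lower (−0.39, adjusted p = 0.00013), and Ass1, argininosuccinate synthase, which uses aspartate, was higher (0.47, adjusted p = 0.0364), as were Adsl and Adss of purine synthesis (both 0.19). Ass1, Adsl and Adss did not pass without replicates 4 and 5.

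On the glycerol phosphate side 1 of 8 was higher and 1 lower: Agpat2, an acyltransferase of glycerolipid synthesis (0.42, adjusted p = 0.0005 by edgeR), and the glycolytic aldolase Aldoa (−0.33, adjusted p = 0.00047). Of the NAD(H) and NADP(H) genes 2 of 7 were higher and 0 lower. These were Nadk, the cytosolic NAD kinase (normalised counts 2170 to 2603 in Ctrl and 3430 to 3854.5 in β-Mfn1/2DKO, log2 fold change 0.60, adjusted p = 7.8e-09), and Nmnat3, a mitochondrial NAD-synthesising enzyme (0.31, adjusted p = 0.00335). With the depth term against Ctrl, Gpt2 (1.68), Idh1 (−0.45), Asl (−0.53) and Nadk (0.58) passed. The other genes called in these lists did not: Agpat2 (0.31, adjusted p = 0.31), Aldoa (−0.35, adjusted p = 0.107), Nmnat3 (0.20, adjusted p = 0.526), Mpc2 (0.17, adjusted p = 0.569), Ldhd (0.33, adjusted p = 0.358), Pcx (−0.08, adjusted p = 0.94), Slc16a1, Ass1, Adsl and Adss. Against the deep β-Mfn2KO libraries alone, Gpt2 (1.83), Idh1 (−0.41), Nadk (0.57), Asl (−0.29) and Agpat2 (0.42) passed, and the other genes called against Ctrl did not. In the 6 lists 0 of 48 genes passed in β-Mfn1KO or β-Mfn2KO, with 3 and 3 unadjusted p under 0.05 in edgeR. Of all genes 0.0279% and 0.0559% passed in these comparisons.

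Across all 20 libraries, the genes whose log2 normalised counts followed Gpd2 most closely, among 12263 genes searched, were Muc4, a membrane mucin (Pearson r 0.907), Prkca, a protein kinase C (0.877), and Exph5, a Rab27 effector (0.877). With group means removed the r values were 0.777, 0.703 and 0.781. Got1 was followed most closely by Steap1 (0.958), the endoplasmic reticulum protein Erlin1 (0.954) and Ccdc47, also of the endoplasmic reticulum (0.951), with values of 0.888, 0.896 and 0.869 within groups. These describe likeness over libraries that differ in depth and genotype, and they were picked as the highest.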

How the data were processed

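Islet RNA of 20 mice was sequenced, and the authors deposited 2 tables with 1 column per library. The first holds expected counts per gene which, by the study's methods and the submitters' processing notes, the authors made with cutadapt 2.3, FastQC 0.11.8, STAR 2.6.1b on GRCm38 and RSEM 1.3.1; the values are whole numbers, so no rounding was needed. The second holds a signal, the counts that the authors divided by DESeq2 1.26.0 normalization factors, and served only as an alternative scaling (a factor cannot be read where a count is 0, in 23.9% of cells). Whether counting used the strand is not given in the sources used here.

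Groups came from the genotype labels. All 28632 genes were fitted over the 20 libraries with edgeR 4.0.16 (R 4.3.3; TMM, estimateDisp, glmQLFit and glmQLFTest, no covariate, no filter), with Benjamini-Hochberg adjustment over all genes and 6 contrasts. Normalised counts are TMM-scaled to 41.4 M (mega) counts, and levels per kb use the joined length of all GENCODE exons of a gene. Log2 ratios (pseudocount 0.5) were compared by exact permutation of libraries. The model was tested on simulated data. Alternatives were DESeq2 1.42.0, other scalings and filters, 2-group fits, terms for sex, acinar level, depth class or replicate number, libraries drawn down to 1 depth, and fits without single libraries. Python 3.11.15, NumPy 2.4.6, pandas 2.3.3, SciPy 1.17.1 and Matplotlib 3.10.9 were used.

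Depth sets the counting error, which is largest for Slc25a13, the member with the fewest counts. The p-values of edgeR set a group difference against the spread between these libraries, estimated partly across genes. Those of the permutation test rank the observed split among all splits of these libraries. Neither covers anything beyond these libraries. All members were named in each group, as were the 2 to 4 genes with the smallest p in each neighbouring list. Ass1 was named beyond that number as a further called gene of its list, and other genes where stated. Members, lists and tests were chosen with earlier results of these data known.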

Additional observations from a re-analysis of the deposited data

Results flagged for a closer look

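In 56 groups of 4 to 6 libraries (a gene or ratio in a genotype), 6 held a library far from the others by Dixon's criterion, and chance gives about 1 in 20. Got1 was at 2099.8 normalised counts in β-Mfn2KO replicate 3, against 1507.7 to 1624.1 in the other 4 libraries, and the Got1/Got2 ratio of that library was 0.517 against 0.367 to 0.405. Got2 was at 3635.0 in β-Mfn1KO replicate 2, against 4303.9 to 4396.5.

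β-Mfn1/2DKO replicate 5, which had the highest acinar marker level (10.19) and, at 65.5 M counts, the lowest total of its group, stood apart in 3 measures. Slc25a12 was at 2425.4 there, against 2892.3 to 3004.0 in the other 4 libraries. Its Mdh1/Mdh2 ratio was 1.17 against 1.23 to 1.24, and its Got1/Got2 ratio was 0.464 against 0.569 to 0.606. The part of the acinar level in these values was not tested.

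The effect of losing Mfn1 on Mdh1 differed with the state of Mfn2, with an interaction of −0.45 on the log2 scale (adjusted p = 0.00587 in edgeR's quasi-likelihood test). Mdh1 was lower in β-Mfn1/2DKO than in β-Mfn2KO in all 5 libraries, without overlap.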

How the results depend on the processing

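Of 848 values of the shuttle genes recomputed under another setting, 747 kept their side of the threshold or, for counts, stayed within 1.5 times, and 2 called values reversed. Both were Gpd2 with the depth class term, at 0.0093 against Ctrl and 0.23 against β-Mfn1KO; of the neighbouring genes Slc16a1 turned with that term as well (−0.21 against Ctrl). Depth is one limit: all β-Mfn1/2DKO and no Ctrl or β-Mfn1KO libraries were deep and that term rests on 2 β-Mfn2KO libraries. The cause of the changes below was not tested unless fewer libraries or a stricter threshold made them.

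Of the 10 genes, those that passed in β-Mfn1/2DKO numbered 4 against Ctrl, 4 against β-Mfn2KO and 5 against β-Mfn1KO, with 1 for the interaction. With a fold over 1.5 as well the counts were 2, 2, 0 and 0. With the depth term they were 1 (Gpd1), 2 (Mdh1 and Got1) and 2 (Gpd1 and Mdh1), and with deep libraries only it was 1 (Got1) against β-Mfn2KO. Against β-Mfn1KO, 3 passed with sex as a term, 2 with the acinar level and 2 without β-Mfn1/2DKO replicates 4 and 5. The interaction passed for 2 genes (Mdh1 and Got1) with DESeq2, with the acinar level and without replicates 4 and 5. Leaving out 1 library gave 3 to 5 against Ctrl, 3 to 4 against β-Mfn2KO, 3 to 4 against β-Mfn1KO and 1 to 2 for the interaction (2 without β-Mfn2KO replicate 3 or β-Mfn1/2DKO replicate 5). Gpd2, Mdh1 and Got1 passed against Ctrl in all 11 such fits (−0.74 to −0.64, −0.44 to −0.37 and 0.55 to 0.68).

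The log2 ratios Gpd1/Gpd2, Mdh1/Mdh2 and Got1/Got2 of β-Mfn1/2DKO against deep β-Mfn2KO libraries, chosen after seeing the data, were 0.42, −0.42 and 0.49 (exact permutation p = 0.0952, the smallest possible). The Gpd1/Gpd2 ratio of β-Mfn2KO against Ctrl ran from 0.16 to 0.31 with 1 library left out, the last without β-Mfn2KO replicate 2 (exact permutation p = 0.019).

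The labels do not say what a replicate number stands for, but sex goes with it. Replicates 1 and 2 were female and replicates 4 to 6 male in every group that had them, while replicate 3 was mixed. The replicate block therefore carries sex in part, and the part of sex in the likeness below was not tested. Deviations of same-number libraries had a mean correlation of 0.246, against −0.0544 for other numbers. Of the 27 same-number pairs 21 were over 0.1 (lowest −0.102), and 10 of 20 libraries matched their own number best. Libraries of the same number were thus more alike on average, which the main fit leaves out. As the labels do not say what else is shared, the numbers were not taken as pairs there. With the replicate block 5 genes passed against Ctrl (Slc25a11 added, −0.17), 4 against β-Mfn2KO, 5 against β-Mfn1KO and 1 for the interaction. In pairs by number the 3 ratios were 0.80, −0.47 and 0.51 against Ctrl and 0.61, −0.44 and 0.44 against β-Mfn2KO (exact permutation p = 0.0625, the smallest that 5 pairs allow).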

Other observations

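Nnt, the mitochondrial transhydrogenase that passes hydride between NADH and NADP, varied more within groups than any shuttle gene. Normalised counts ran from 598.7 to 1509.0 in Ctrl, were 1044.0, 780.9, 1507.5 and 438.0 in β-Mfn1KO, 691.2, 1934.4, 656.9, 1351.9 and 742.3 in β-Mfn2KO, and 1577.0, 990.6, 1339.6, 503.6 and 634.2 in β-Mfn1/2DKO. All groups overlapped, and Nnt differed by −0.09 between β-Mfn1/2DKO and Ctrl on the log2 scale (adjusted p = 0.894 in edgeR's quasi-likelihood test, SE 0.33). Nnt was named after its values were seen.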
